A study of Mus musculus with 15 samples.

Results

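A set of 40 genes that carry out or steer pre-mRNA splicing was followed in mouse cortex after magnetic brain stimulation: 10 SR protein genes, 4 genes of the CLK kinases, 2 Tra2 genes, 5 genes of serine/arginine-rich coactivators and speckle proteins, 4 Rbm and Luc7-like genes, 3 genes of 3′ splice site and branch point recognition, and 12 hnRNP genes. The members were chosen by gene symbol, and all 40 of 40 symbols were found among the 56748 identifiers of the raw count table. The animals were wild-type C57BL/6J mice, and the tissue was taken 3 hours after 1 session of repetitive transcranial magnetic stimulation, which drives cortical tissue with magnetic pulses through the skull. Stimulation was intermittent theta-burst (iTBS, 5 mice), continuous theta-burst (cTBS, 5 mice) or sham (5 mice), with 1 total RNA library per mouse. The dissected area is somatosensory cortex in the titles but sensorimotor in the design text, and it is called cortex below. Age and sex were not given in the sources used here.

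Splicing removes introns from nascent RNA, and its outcome depends on proteins that mark exons and introns. SR proteins bind exons and mostly favour their inclusion, hnRNPs often oppose it, and CLK kinases phosphorylate SR proteins and release them from nuclear speckles. Malat1, an abundant noncoding RNA, resides in the same speckles, and neurons rely on this machinery for a large set of brain-specific exons. Many splicing factor genes also control their own transcripts through introns or exons whose retention or inclusion prevents translation.

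No splicing gene passed edgeR's test in any comparison of stimulation groups, and neither did any other gene (0.0% of all genes). DESeq2 called 3 splicing genes in iTBS against cTBS, but among 2618 genes of the whole table. Once sham 4 was left out, edgeR called 11 splicing genes in cTBS against sham, but among 5726 genes of the whole table. Within groups, 27 of the 40 genes moved with the Malat1 level of the library. Per doubling of Malat1, 25 of the 40 genes rose and 2 fell (28.1% and 15.9% of all genes), led by the kinase genes Clk1 and Clk4 and the speckle protein gene Pnisr. Of the 12 hnRNP genes, 4 rose, 2 fell and 6 did not pass, which is close to the shares among all genes of any type. Among the 15245 tested protein-coding genes alone, 2133 rose and 3378 fell. Neither downward hnRNP call was made with library totals alone or with log2 total count as a covariate. Compared with sham, the estimates for cTBS were positive for 12 and negative for 28 of the 40 genes, against 46.5% positive among all genes. They were positive for 8910 of the 15245 tested protein-coding genes. Malat1 averaged 2582 ± 1273 CPM in cTBS and 5967 ± 3201 CPM in sham (SD, n = 5 each), a difference that was not called, with overlapping groups.

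Total counts per library were 15385070 to 47807723, and 32299 to 35449 genes had a count. Malat1 was at 2948, 9492, 6365, 8407 and 3467 CPM (counts scaled to equal library size) in iTBS libraries 1 to 5, at 1521, 3653, 2925, 985 and 3824 CPM in cTBS libraries 1 to 5 and at 7863, 5736, 10000.4, 1565 and 4668 CPM in sham libraries 1 to 5. The highest and lowest of these levels differed 10.2-fold, and both the iTBS and the cTBS range overlapped the sham range. The 3 libraries with the least Malat1, cTBS 4, cTBS 1 and sham 4, were also the 3 with the highest total counts. Markers of cortical excitatory neurons summed to 2332 to 2962 CPM in iTBS libraries, 2400.0 to 3039 CPM in cTBS libraries and 2025 to 3290.3 CPM in sham libraries, and all 7 were detected in every library. Markers of neighbouring tissue were present too: 8 choroid plexus markers summed to 6.83 to 288 CPM, 8 striatal markers to 232 to 1078 CPM and 6 thalamic markers to 25.5 to 150.2 CPM over the 15 libraries. In bulk tissue, fewer cells of a type and less RNA per cell cannot be told apart.

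All 40 genes were well measured, with 125 to 26059 reads in any library, and all 40 passed the filter on low counts. Together they held 0.421 to 0.587% of the counts in iTBS libraries, 0.398 to 0.503% in cTBS libraries and 0.416 to 0.584% in sham libraries. Per kilobase of annotated exon sequence, Srrm2, Hnrnpk and Hnrnpa3 had the highest mean levels over the 15 libraries, at 47.5, 47.2 and 44.3 CPM per kilobase. The lowest was Srsf4 at 2.35 CPM per kilobase, and the 4 Clk genes lay between 4.55 (Clk2) and 6.67 CPM per kilobase (Clk1). The highest and lowest library of a gene differed 1.13-fold for Hnrnpl and 3.50-fold for Clk1, with a median of 1.46-fold. For 16 of the 40 genes the highest library was sham 3, the library with the most Malat1.

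**Figure D1:**
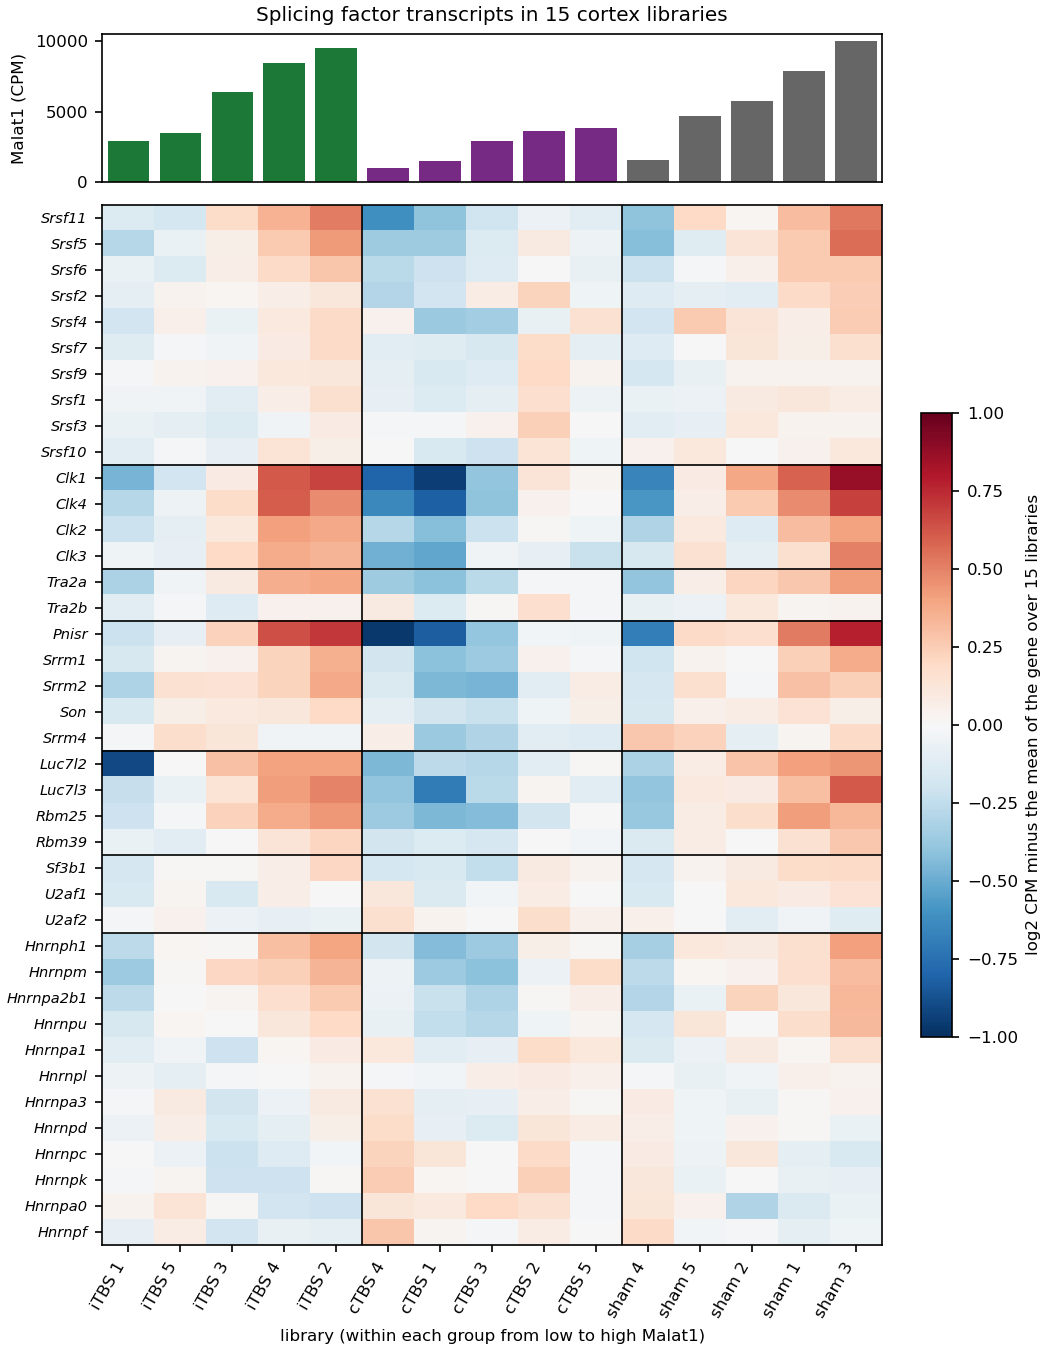
Log2 CPM of each of the 40 genes minus its mean over the 15 libraries (colour, rows by role), below the Malat1 level of each library in CPM (bars). Within iTBS, cTBS and sham the libraries run from low to high Malat1. Along that order the rows of Clk1, Clk4 and Pnisr pass from blue to red in iTBS and sham and from blue to pale in cTBS. Hnrnpl and most lower hnRNP rows stay pale.

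The relation to Malat1 was taken as a slope, the log2 change of a gene per doubling of Malat1 CPM, in a model with a term for each stimulation group. It therefore describes libraries within groups. With edgeR's quasi-likelihood test and Benjamini-Hochberg adjustment over all tested genes, 25 splicing genes rose and 2 fell at an adjusted p under 0.05. The same call was made for 44.0% of all 22997 genes tested, upward for 28.1% and downward for 15.9%. Among the 15245 tested protein-coding genes, 2133 rose and 3378 fell. Estimates were positive for 32 of the 40 genes, against 53.2% of all genes. The median slope of the 40 genes was 0.12, against 0.01 over all tested genes and −0.03 over tested protein-coding genes. With no filter on low counts the median of the 40 genes was 0.09, below the 0.11 over all genes, so the order of these medians changed with the filter. Malat1 also moved with depth, and with log2 total count as a further covariate 22 splicing genes rose and none fell, among 4730 that rose and 1569 that fell over all genes.

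**Figure D2:**
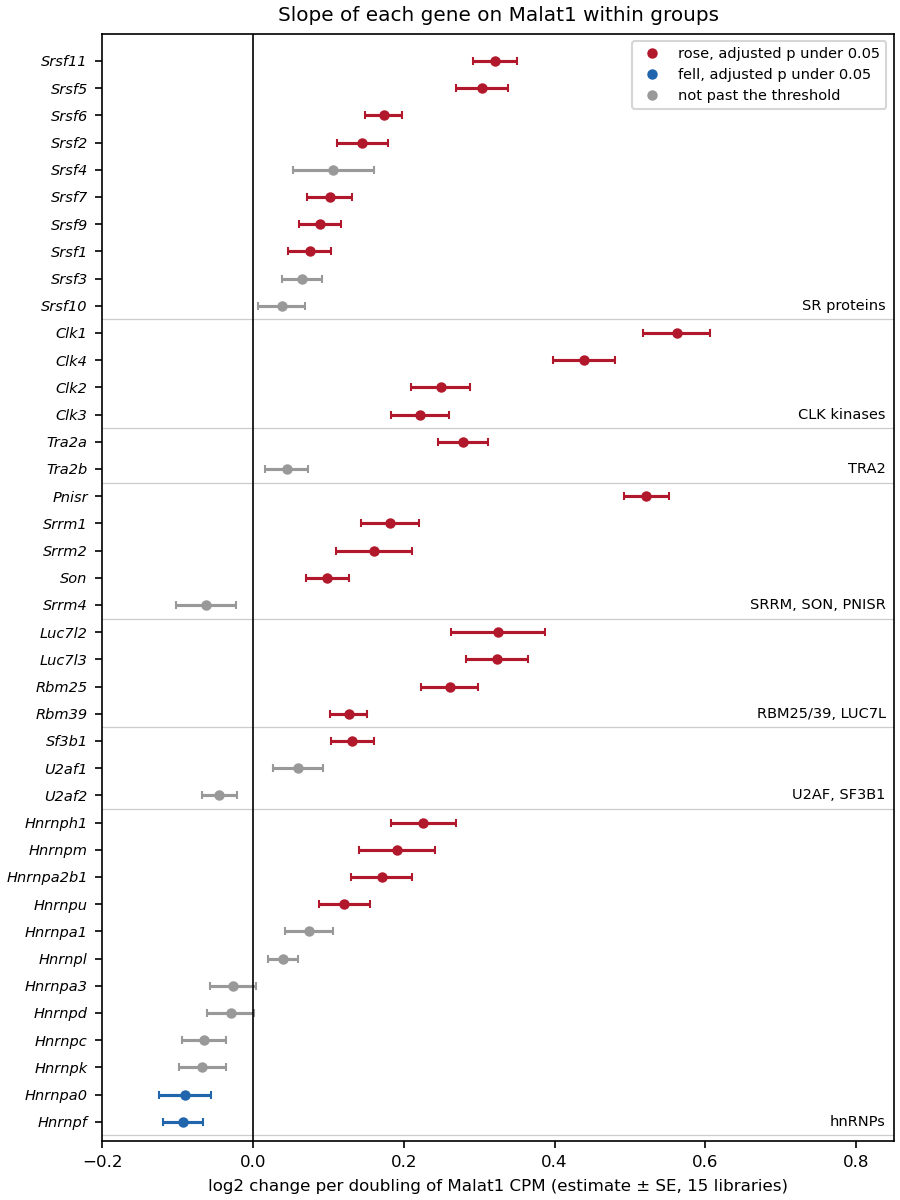
Slope on Malat1 for each of the 40 genes, as log2 change per doubling of Malat1 CPM (points, estimate; bars, ± SE; 15 libraries), grouped by role. Clk1 has the steepest slope at 0.56, all 10 SR protein genes lie right of 0, and Hnrnpf and Hnrnpa0 are the 2 genes that fell.

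The CLK kinases phosphorylate the serine/arginine domains of SR proteins, and all 4 of their genes rose with Malat1. Clk1 (ENSMUSG00000026034) stood at 36.6, 80.7, 53.6, 77.4 and 44.3 CPM in iTBS libraries 1 to 5, at 26.4, 55.4, 38.4, 29.05 and 51.5 CPM in cTBS libraries 1 to 5 and at 76.02, 66.2, 92.3, 31.9 and 53.5 CPM in sham libraries 1 to 5. Its lowest values were in cTBS 1, cTBS 4 and sham 4, the 3 libraries with the least Malat1, and its highest was in sham 3. The slope of Clk1 was 0.56 ± 0.04 (SE), with an adjusted p of 1.23e-07 by edgeR's quasi-likelihood test. Clk4 (ENSMUSG00000020385) was at 26.2, 44.2, 36.2, 48.5 and 30.8 CPM in iTBS libraries 1 to 5, at 18.1, 32.9, 24.1, 20.4 and 31.8 CPM in cTBS libraries 1 to 5 and at 44.2, 38.3, 51.1, 21.3 and 33.4 CPM in sham libraries 1 to 5. The same 3 libraries were lowest for Clk4, and its slope was 0.44 ± 0.04 (adjusted p = 6.67e-07, edgeR).

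The other two kinase genes had shallower slopes. Clk2 (ENSMUSG00000068917) was at 20.4, 30.8, 25.6, 31.5 and 22.1 CPM in iTBS libraries 1 to 5, at 17.6, 23.9, 20.4, 19.5 and 22.99 CPM in cTBS libraries 1 to 5 and at 29.4, 21.7, 31.3, 19.2 and 25.4 CPM in sham libraries 1 to 5. Its slope was 0.25 ± 0.04 (adjusted p = 0.000105, edgeR), and all 3 groups overlapped. Clk3 (ENSMUSG00000032316) was at 40.99, 53.7, 48.5, 54.6 and 39.97 CPM in iTBS libraries 1 to 5, at 29.6, 39.9, 41.3, 30.4 and 36.2 CPM in cTBS libraries 1 to 5 and at 47.3, 39.7, 60.04, 37.8 and 46.9 CPM in sham libraries 1 to 5. Its lowest values were in cTBS 1 and cTBS 4, all 5 of its iTBS values lay within the sham range of 37.8 to 60.04 CPM, and its slope was 0.22 ± 0.04 (adjusted p = 0.000216, edgeR).

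**Figure D3:**
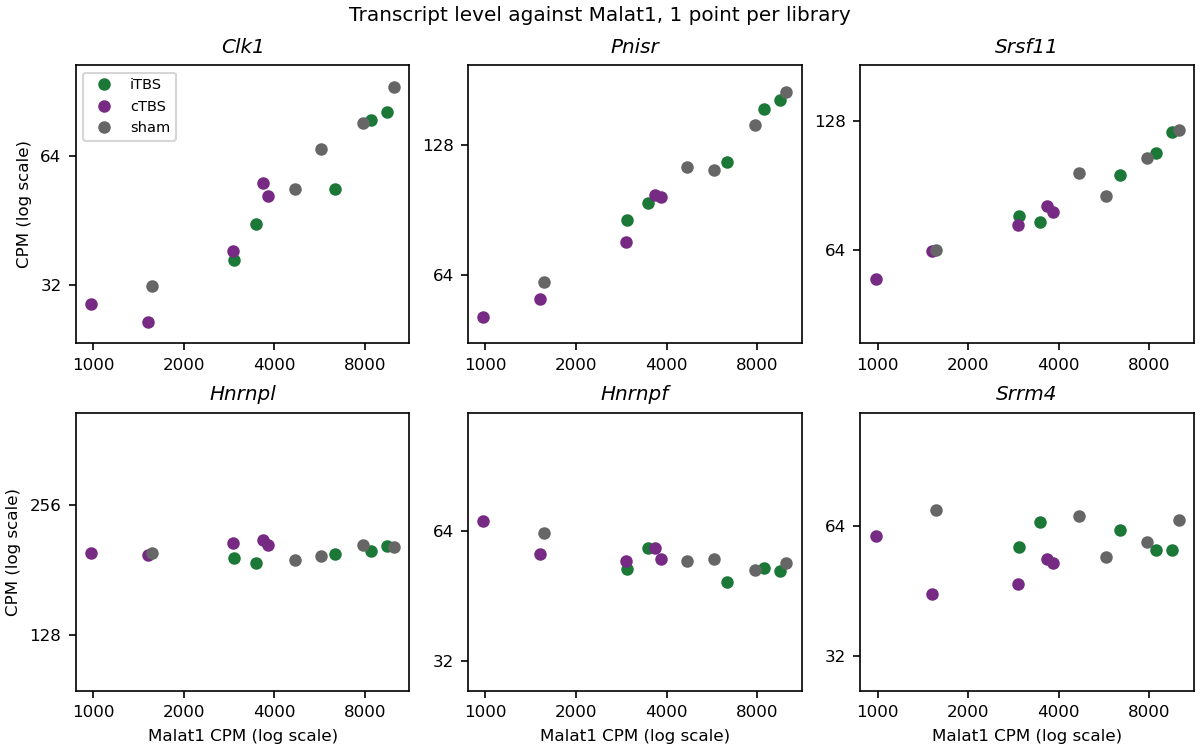
CPM of 6 splicing genes against Malat1 CPM, 1 point per library, both axes on log scales with the same height in fold. Clk1, Pnisr and Srsf11 climb with Malat1 in all 3 groups, Hnrnpl stays between 188 and 212 CPM, Hnrnpf is highest in the low-Malat1 libraries cTBS 4 and sham 4, and cTBS points of Srrm4 lie mostly below sham points.

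All 10 SR protein genes had a positive slope, 7 of them past the threshold, with a median of 0.10. Srsf11, an SR-like protein that acts with Srrm4 on neuronal microexons, was the steepest. Srsf11 (ENSMUSG00000055436) was at 76.7, 120.5, 95.6, 108 and 74.6 CPM in iTBS libraries 1 to 5, at 63.96, 81.03, 73.4, 55.1 and 78.4 CPM in cTBS libraries 1 to 5 and at 105, 85.4, 122, 63.99 and 96.7 CPM in sham libraries 1 to 5. Its slope was 0.32 ± 0.03 (adjusted p = 5.74e-07, edgeR), and cTBS 4 held its lowest value. Srsf5 (ENSMUSG00000021134), which encodes an SR protein that activates exons, was at 98.9, 162, 125, 144 and 115 CPM in iTBS libraries 1 to 5, at 94.3, 128, 109.6, 94.02 and 116 CPM in cTBS libraries 1 to 5 and at 145, 132, 177, 89.9 and 111 CPM in sham libraries 1 to 5. Its highest values were in sham 3 and iTBS 2, the 2 libraries with the most Malat1, and its slope was 0.30 ± 0.03 (adjusted p = 5.29e-06, edgeR).

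The slopes of Srsf6, Srsf2, Srsf7, Srsf9 and Srsf1 were 0.17, 0.15, 0.10, 0.09 and 0.07, and each rose with Malat1 at an adjusted p under 0.05. Srsf1, the founding exon-enhancer protein of the family, was the weakest of the 7 calls, at an adjusted p of 0.0388 (edgeR's quasi-likelihood test). Of the 28 fits run on the slope, Srsf1 was called in 9, Srsf9 in 17, Srsf7 in 24, Srsf2 in 27 and Srsf6 in all 28, and the estimates of these 5 genes were positive in every fit. Srsf4, Srsf3 and Srsf10 had slopes of 0.11 ± 0.05, 0.06 ± 0.03 and 0.04 ± 0.03 (SE) that did not pass, at adjusted p of 0.121, 0.0582 and 0.346 in edgeR. Srsf9 (ENSMUSG00000029538) was at 24.2, 26.5, 25.2, 26.3 and 25.1 CPM in iTBS libraries 1 to 5, at 22.1, 28.1, 22.4, 23.1 and 25.1 CPM in cTBS libraries 1 to 5 and at 25.1, 25.03, 25.1, 21.6 and 23.3 CPM in sham libraries 1 to 5. Its highest level was in cTBS 2 and its lowest in sham 4, 1.30-fold apart, and the 3 groups overlapped. Srsf10 (ENSMUSG00000028676), which represses splicing when it is dephosphorylated, was at 63.8, 71.7, 65.03, 75.6 and 67.96 CPM in iTBS libraries 1 to 5, at 62.1, 75.96, 59.8, 68.8 and 66.8 CPM in cTBS libraries 1 to 5 and at 71.2, 68.7, 74.1, 70.8 and 74.4 CPM in sham libraries 1 to 5. Its highest and lowest levels were both in cTBS libraries, 2 and 3.

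Tra2a and Tra2b are paralogous exon activators, and their slopes were 0.28 ± 0.03 and 0.04 ± 0.03 (SE). Tra2a rose with Malat1 (adjusted p = 6.82e-06, edgeR), and Tra2b did not pass (adjusted p = 0.222, edgeR). The difference between the paralogs was not tested. Tra2a (ENSMUSG00000029817) was at 45.8, 74.3, 60.6, 73.2 and 55.4 CPM in iTBS libraries 1 to 5, at 42.9, 56.1, 47.1, 44.6 and 56.5 CPM in cTBS libraries 1 to 5 and at 68.8, 66.1, 76.1, 43.4 and 59.5 CPM in sham libraries 1 to 5. The values of Tra2a were lowest in cTBS 1, sham 4 and cTBS 4 and highest in sham 3, iTBS 2 and iTBS 4.

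Among the serine/arginine-rich coactivators and speckle proteins, 4 of 5 genes rose with Malat1. Pnisr (ENSMUSG00000028248), which encodes a serine/arginine-rich protein of nuclear speckles, was at 85.4, 162, 117, 155 and 93.7 CPM in iTBS libraries 1 to 5, at 56.3, 97.6, 75.9, 51.04 and 96.6 CPM in cTBS libraries 1 to 5 and at 142, 112, 169.9, 61.4 and 114 CPM in sham libraries 1 to 5. The values of Pnisr ran almost in the order of Malat1 and spanned 3.33-fold, with cTBS 4, cTBS 1 and sham 4 lowest. Its slope of 0.52 ± 0.03 (SE) had the smallest p of the 40 genes (adjusted p = 2.51e-09, edgeR). Srrm1, a coactivator that bridges enhancer-bound SR proteins and the snRNPs, and Son, a speckle scaffold, had slopes of 0.18 and 0.10 and also rose. Srrm2 (ENSMUSG00000039218), a core component of speckles, was at 484, 780.3, 666, 700.0 and 669 CPM in iTBS libraries 1 to 5, at 439.9, 558, 437, 545 and 631 CPM in cTBS libraries 1 to 5 and at 735, 596, 709, 535 and 670.3 CPM in sham libraries 1 to 5. Its lowest values were in cTBS 3 and cTBS 1, and its slope was 0.16 ± 0.05 (adjusted p = 0.0156, edgeR).

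Srrm4, the neuronal regulator that includes microexons in brain transcripts, was the exception in this class. Srrm4 (ENSMUSG00000063919) was at 57.04, 56.1, 62.7, 56.3 and 65.2 CPM in iTBS libraries 1 to 5, at 44.5, 53.5, 46.8, 60.4 and 52.6 CPM in cTBS libraries 1 to 5 and at 58.7, 54.04, 65.97, 69.6 and 67.5 CPM in sham libraries 1 to 5. Its slope was −0.06 ± 0.04 (SE) and did not pass (adjusted p = 0.217, edgeR), and without the group term it was positive. Its highest library was sham 4, one of the 3 with the least Malat1, and its lowest was cTBS 1, another of these. Its exons overlap the antisense gene Srrm4os, and the strand setting of the counting is not given in the sources used here, so reads of the pair cannot be told apart.

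Luc7l2, Luc7l3 and Rbm25, whose proteins associate with the U1 snRNP, and Rbm39, a U2AF-related coactivator, all rose with Malat1. Luc7l3 (ENSMUSG00000020863) was at 64.7, 107, 83.6, 102 and 72.5 CPM in iTBS libraries 1 to 5, at 46.9, 77.4, 63.1, 57.8 and 70.5 CPM in cTBS libraries 1 to 5 and at 93.8, 80.4, 116, 57.9 and 81.3 CPM in sham libraries 1 to 5. Its slope was 0.32 ± 0.04 (adjusted p = 1.33e-05, edgeR), with cTBS 1 lowest and sham 3 highest. Rbm25 (ENSMUSG00000010608) was at 74.7, 116, 101, 111 and 85.04 CPM in iTBS libraries 1 to 5, at 62.99, 76.03, 63.9, 66.9 and 85.9 CPM in cTBS libraries 1 to 5 and at 115, 97.3, 109, 66.2 and 90.9 CPM in sham libraries 1 to 5. Its slope was 0.26 ± 0.04 (adjusted p = 4.55e-05, edgeR), and 4 of its 5 sham values lay above all cTBS values. Luc7l2 had a slope of 0.32 ± 0.06, with a single low iTBS library at 78.2 CPM (iTBS 1) against 147 to 193 CPM in the other iTBS libraries. Rbm39 had a slope of 0.13 ± 0.02 (adjusted p = 0.000636, edgeR).

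Of the 3 genes for recognition of the 3′ end of introns, Sf3b1, the branch point subunit of the U2 snRNP, rose with Malat1 at a slope of 0.13 ± 0.03 (adjusted p = 0.00134, edgeR). U2af2, which binds the polypyrimidine tract, and U2af1, which reads the AG that follows it, had slopes of −0.04 ± 0.02 and 0.06 ± 0.03 (SE) that did not pass, and that of U2af2 turned positive with library totals alone. U2af1 (ENSMUSG00000061613) was at 18.3, 20.5, 18.4, 21.3 and 20.8 CPM in iTBS libraries 1 to 5, at 18.5, 21.5, 20.02, 22.1 and 20.4 CPM in cTBS libraries 1 to 5 and at 21.7, 22.01, 22.6, 18.4 and 20.3 CPM in sham libraries 1 to 5. The 3 groups of U2af1 covered nearly the same range.

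The hnRNP genes split around 0, with 6 positive and 6 negative slopes and a median of 0.01, although Hnrnpa3 and Hnrnpd turned positive with library totals alone or log2 total count as a further covariate. Hnrnph1, Hnrnpm, Hnrnpa2b1 and Hnrnpu rose, with slopes of 0.23 ± 0.04, 0.19 ± 0.05, 0.17 ± 0.04 and 0.12 ± 0.03 (SE). Hnrnph1 binds runs of G, Hnrnpa2b1 also takes part in RNA transport in neurons, and Hnrnpu is a scaffold attached to chromatin. Hnrnpf, a close relative of Hnrnph1 in sequence and binding, fell by 0.09 per doubling of Malat1 (SE 0.03, adjusted p = 0.00905, edgeR), as did Hnrnpa0, which binds AU-rich RNA (SE 0.03, adjusted p = 0.0412, edgeR). Both estimates were negative in all 28 fits run on the slope, but neither gene was called when libraries were scaled by their totals alone or with log2 total count as a further covariate.

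Hnrnpf (ENSMUSG00000042079) was at 52.4, 51.7, 48.6, 52.5 and 58.3 CPM in iTBS libraries 1 to 5, at 56.6, 58.4, 54.6, 67.4 and 55.2 CPM in cTBS libraries 1 to 5 and at 51.99, 55.01, 53.9, 63.2 and 54.5 CPM in sham libraries 1 to 5. Its highest values were in cTBS 4 and sham 4, which had little Malat1, and its lowest in iTBS 3. Hnrnpc (ENSMUSG00000060373), which coats U-rich introns, was at 149.9, 147, 129, 137 and 144 CPM in iTBS libraries 1 to 5, at 163, 172, 149.7, 175 and 149 CPM in cTBS libraries 1 to 5 and at 141, 163, 135, 159 and 145 CPM in sham libraries 1 to 5. Hnrnpc had a slope of −0.07 ± 0.03 that did not pass (adjusted p = 0.0779, edgeR), although its estimate was negative in all 28 fits and called in 14 of them. For Hnrnpc, 4 of its 5 iTBS values lay below all 5 cTBS values. Hnrnpl, which binds CA repeats, was the steadiest gene, between 188 and 205 CPM in iTBS libraries, 197 and 212 CPM in cTBS libraries and 190.5 and 207 CPM in sham libraries. Hnrnpl, Hnrnpa1, Hnrnpa3, Hnrnpd and Hnrnpk had slopes of 0.04, 0.07, −0.03, −0.03 and −0.07, none past the threshold, while Hnrnpk was called lower in 8 of the 28 fits.

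The slope was also fitted within each group. It was positive for 32 of the 40 genes in iTBS, 31 in cTBS and 32 in sham, with medians of 0.15, 0.08 and 0.14. Of the 40 genes, 29 had their highest slope in iTBS and 27 their lowest in cTBS. These counts were not made over all genes, and genes of a library move together, so they are a description only. No gene passed the test of a difference in slope between the 3 groups (edgeR's quasi-likelihood test with 2 numerator degrees of freedom; 0.0% of all genes passed), in DESeq2 or in limma, and 1 gene had an unadjusted p under 0.05, against 1.45% of all genes. That gene was Luc7l2, with slopes of 0.59 in iTBS, 0.18 in cTBS and 0.30 in sham (unadjusted p = 0.0421, adjusted p = 1.00, edgeR), where iTBS 1 was the low library described above. For Clk1 the slopes were 0.64 in iTBS, 0.50 in cTBS and 0.56 in sham, and for Pnisr 0.54 in iTBS, 0.49 in cTBS and 0.53 in sham.

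**Figure D4:**
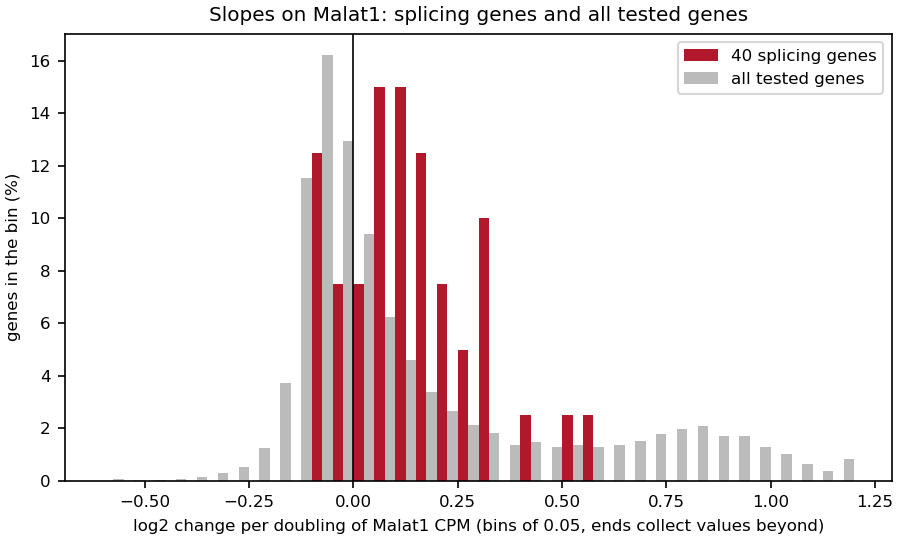
Share of genes (%) in bins of 0.05 of the slope on Malat1, for the 40 splicing genes (red) and for all 22997 tested genes (grey), with values beyond the ends collected in the last bins. The grey bars peak just below 0 and have a second rise beyond 0.6, whereas the splicing genes lie between −0.09 and 0.56.

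The size of the slopes was set beside those of lists with a known place in the cell. Of 10 long noncoding RNAs that stay in the nucleus, other than Malat1, 9 rose and 1 fell with Malat1, with a median slope of 0.73. Of 32 genes of cytosolic ribosomal proteins, none rose and 23 fell, with a median of −0.11. The splicing genes, at a median of 0.12, lay between these lists. No cell type or regional marker rose: 5 of 7 excitatory neuron, 3 of 6 inhibitory neuron, 3 of 5 astrocyte, 5 of 5 microglia and 2 of 8 choroid plexus markers fell with rising Malat1. None of the 5 oligodendrocyte, 5 endothelial and mural, 8 striatal and 6 thalamic markers passed in either direction. Over all tested genes, 28.1% rose and 15.9% fell. The part of cell composition in the slopes of the splicing genes was not tested. Without the 3 libraries with the most choroid plexus RNA (sham 2, sham 5 and cTBS 4), 24 splicing genes rose and 3 fell, among 6260 that rose and 4443 that fell over all genes.

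The annotation gives a further feature that the splicing genes share. Of the 40 genes, 33 had an annotated retained-intron transcript, against 54.5% of tested protein-coding genes, and 33 had an annotated transcript subject to nonsense-mediated decay, against 26.3%. Among all tested protein-coding genes the median slope was −0.05 with no retained-intron transcript (6938 genes), −0.03 with 1 or 2 (5352 genes), −0.00 with 3 or 4 (1973 genes) and 0.03 with 5 or more (982 genes). In the same classes the splicing genes had median slopes of 0.07 (7 genes), 0.10 (11 genes), 0.14 (12 genes) and 0.18 (10 genes). By number of nonsense-mediated decay transcripts, the protein-coding medians were −0.04 with 0, −0.02 with 1, 0.00 with 2 and 0.05 with 3 or more, whereas those of the splicing genes were −0.03 (7 genes), 0.17 (11 genes), 0.13 (14 genes) and 0.12 (8 genes) and did not climb beyond the first step. Across genes, the Spearman correlation of slope and number of retained-intron transcripts was 0.29 for the 40 splicing genes and 0.16 for protein-coding genes. It is given as a description because genes of a library share its depth and composition. Clk1 has 7 annotated retained-intron transcripts, Clk4 has 7 and Srsf11 has 11, whereas Pnisr, with the second steepest slope, has 0. Counts per gene do not separate these transcripts from spliced messenger RNA.

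Promoter sequence was compared with RefSeq tables for the mouse build GRCm38.p6, which hold 250 bases before to 50 bases after a gene's start. Entries were found for 37 of the 40 genes, but for Clk1, Pnisr and U2af2 none was matched. The 51 promoter entries of the splicing genes had a median GC content of 65.3% and 30 CpG dinucleotides, against 52.7% and 7 over all 32851 promoters. On either strand, a GC box (GGGCGG) was present in 26 of the 37 genes, against 35.7% of all promoters, and a CCAAT box (CCAAT) in 20, against 37.4%. A TATA box (TATAAA) was present in 4, against 13.6%, and an ETS site (CCGGAAGT) in 5, against 3.89%. A gene with several entries counts where any of them holds the letters, whereas the percentages of all promoters count single entries. The counts of splicing genes may therefore be raised by genes with several entries. The cAMP response element (TGACGTCA) is the binding sequence of CREB, a factor activated by neuronal activity. It was found in 2 of the 37 genes, Clk4 and Tra2a, against 1.79% of all promoters. Both genes rose with Malat1, and their promoters are shown with that of Hnrnpa0, which fell. These 3 were picked with their values known, and capitals mark the letters of a listed motif on either strand.
Clk4 (chr11:51262864-51263163, plus strand): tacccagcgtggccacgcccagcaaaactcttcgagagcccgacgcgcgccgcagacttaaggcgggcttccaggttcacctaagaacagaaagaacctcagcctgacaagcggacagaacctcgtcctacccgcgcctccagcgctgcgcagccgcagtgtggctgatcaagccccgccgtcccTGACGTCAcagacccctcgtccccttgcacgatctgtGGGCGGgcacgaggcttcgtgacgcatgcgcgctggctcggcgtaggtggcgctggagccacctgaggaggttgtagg
Tra2a (chr6:49264003-49264302, minus strand): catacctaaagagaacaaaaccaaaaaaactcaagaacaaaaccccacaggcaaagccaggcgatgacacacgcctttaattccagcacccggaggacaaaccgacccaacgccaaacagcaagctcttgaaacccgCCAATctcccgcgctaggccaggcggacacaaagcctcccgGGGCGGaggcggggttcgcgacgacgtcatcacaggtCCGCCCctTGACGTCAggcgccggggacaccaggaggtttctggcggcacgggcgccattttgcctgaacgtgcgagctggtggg
Hnrnpa0 (chr13:58128507-58128806, minus strand): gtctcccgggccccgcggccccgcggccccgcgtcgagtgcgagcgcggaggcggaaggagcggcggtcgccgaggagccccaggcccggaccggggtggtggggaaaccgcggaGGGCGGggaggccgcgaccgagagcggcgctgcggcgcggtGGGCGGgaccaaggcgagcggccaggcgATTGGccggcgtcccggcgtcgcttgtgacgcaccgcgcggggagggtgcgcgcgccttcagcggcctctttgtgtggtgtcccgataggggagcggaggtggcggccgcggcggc
In Clk4 the element begins at base 186 of the window, before a GC box at base 223. In Tra2a it begins at base 224, beside a GC box at base 216, and in Hnrnpa0 the capitals are 2 GC boxes and a CCAAT box. A match of letters is not evidence of binding.

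The study's own comparisons set each stimulation protocol against sham. In cTBS against sham, the estimates were negative for all 4 Clk genes, all 5 coactivator genes and all 4 Rbm and Luc7-like genes, and positive for 8 of the 12 hnRNP genes, but none of the 40 genes was called. No gene of the whole table was called either (0.0%, edgeR's quasi-likelihood test), and DESeq2 and limma called none of the 40. At an unadjusted p under 0.05, 2 splicing genes were higher and 14 lower, against 6.8% higher and 17.6% lower among all genes. Among the 15245 tested protein-coding genes, 1462 were higher and 1205 lower at that level. The median log2 fold change of the 40 genes was −0.18, against −0.02 over all tested genes. No splicing gene had cTBS and sham libraries that did not overlap. Over all genes, 0.626% lay wholly higher and 0.713% wholly lower in cTBS, so none among 40 genes is close to the share of all genes.

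Srrm4 had the smallest p of the 40 genes in cTBS against sham. It averaged 51.6 ± 6.24 CPM in cTBS and 63.2 ± 6.56 CPM in sham (SD, n = 5 each), a log2 fold change of −0.29 ± 0.09 (SE, adjusted p = 0.144, edgeR). Clk1 averaged 40.2 ± 13.01 CPM in cTBS and 64.00 ± 22.9 CPM in sham, with the largest estimate at −0.67 ± 0.28 (adjusted p = 0.170, edgeR). Pnisr averaged 75.5 ± 21.8 CPM in cTBS and 119.7 ± 40.4 CPM in sham, at −0.66 ± 0.25 (adjusted p = 0.151, edgeR). For both genes sham 4 lay among the cTBS values, and the other sham libraries lay mostly above them. Rbm25, Clk3, Srsf11 and Luc7l3 had log2 fold changes of −0.43 ± 0.14, −0.38 ± 0.13, −0.42 ± 0.16 and −0.44 ± 0.18, with adjusted p from 0.144 to 0.157 (edgeR). The highest estimates were those of Hnrnpa0 (0.18 ± 0.08) and U2af2 (0.13 ± 0.05). Without sham 4, 11 splicing genes were called in edgeR: Clk1, Clk3, Clk4, Hnrnpu, Luc7l3, Pnisr, Rbm25, Srsf11 and Tra2a lower and U2af2 and Hnrnpa0 higher in cTBS, among 5726 genes of the whole table.

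**Figure D5:**
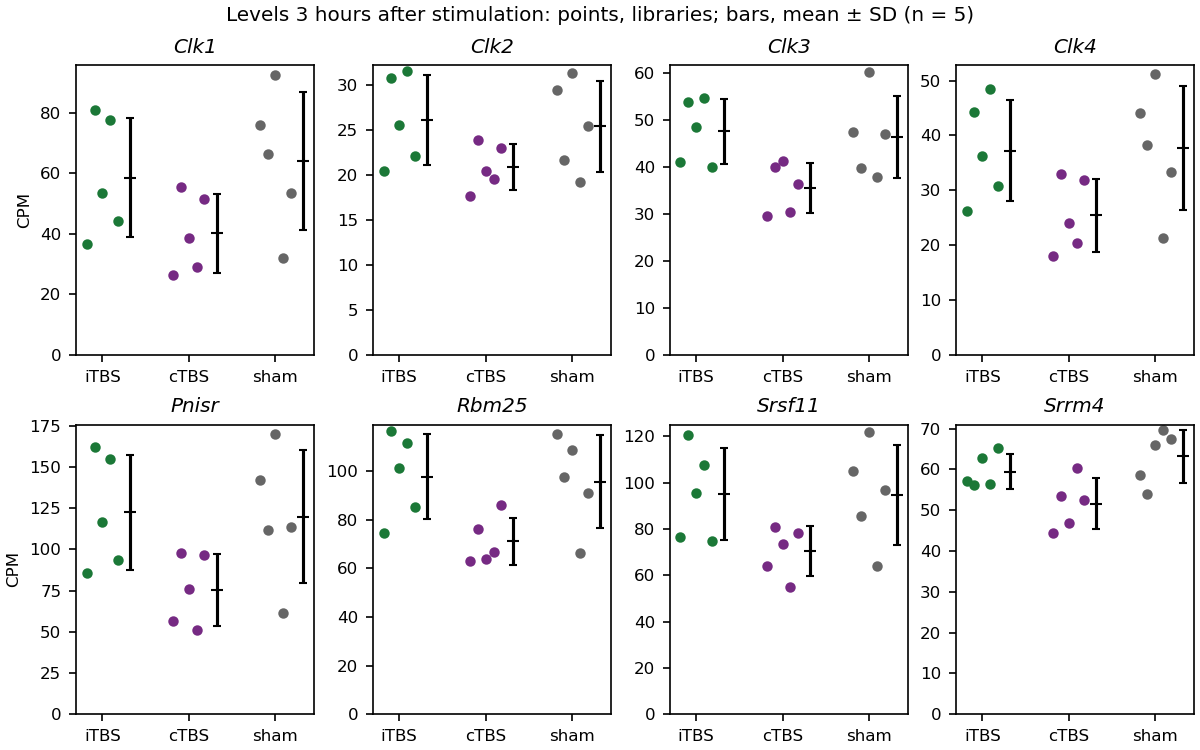
CPM of 8 splicing genes in iTBS, cTBS and sham libraries (points, 1 library each; bars, mean ± SD, n = 5). The cTBS mean is the lowest of the 3 in every panel, and in each panel cTBS points overlap with sham points.

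The mean of Malat1 was also lower in cTBS than in sham, without a call. With log2 Malat1 CPM as a covariate, the median log2 fold change of the 40 genes for cTBS against sham was −0.0015, with 20 positive and 20 negative estimates. Estimates shrank over the whole table too: the median of all 22998 tested genes was −0.008, against −0.02 without the covariate, and 11017 were positive. At an unadjusted p under 0.05 (edgeR), 590 of all genes were higher and 885 lower, against 1565 and 4058 without the covariate. In that fit the estimate of Clk1 was 0.01 ± 0.10, that of Clk4 −0.03 ± 0.09 and that of Pnisr −0.04 ± 0.07 (SE). The estimate of Srrm4 did not shrink, at −0.36 ± 0.09 (unadjusted p = 0.000876, adjusted p = 0.685, edgeR). The nuclear long noncoding RNAs had a median log2 fold change of −0.99 in cTBS against sham and the ribosomal protein genes 0.22, with none called. Markers of other cells and regions moved as well: all 8 striatal markers had positive estimates, with a median of 0.75, and 1.09 with log2 Malat1 CPM as a covariate, where 5 of the 8 had an unadjusted p under 0.05. The medians of the oligodendrocyte, inhibitory neuron and microglia markers were 0.22, 0.21 and 0.16, positive for all 5, 6 and 5 genes, and 0.12, 0.08 and 0.04 with the covariate. None of these markers was called, and their part in the estimates of the splicing genes was not tested.

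In iTBS against cTBS, which shares the cTBS libraries with the comparison just given, the estimates were positive for 28 of the 40 genes, against 53.9% of all genes. None of the 40 genes was called by edgeR (0.0% of all genes) or limma, while at an unadjusted p under 0.05, 12 were higher and 3 lower in iTBS, against 20.0% and 10.6% of all genes. Among the 15245 tested protein-coding genes, 1393 were higher and 2308 lower at that level. The median log2 fold change was 0.14, against 0.03 over all tested genes. Clk3 averaged 47.6 ± 6.87 CPM in iTBS and 35.5 ± 5.34 CPM in cTBS (SD, n = 5 each), a log2 fold change of 0.42 ± 0.13 (SE, adjusted p = 0.0838, edgeR), the smallest p of the 40. Rbm25 averaged 97.7 ± 17.6 CPM in iTBS and 71.1 ± 9.73 CPM in cTBS, at 0.46 ± 0.14 (adjusted p = 0.0839, edgeR). Pnisr, Srsf11 and Srrm2 were at 0.70 ± 0.25, 0.43 ± 0.16 and 0.34 ± 0.13, and Hnrnpc was the lowest at −0.19 ± 0.07 (adjusted p = 0.0922, edgeR). DESeq2 called Clk3 and Rbm25 higher and Hnrnpc lower in iTBS, among 2618 genes of the whole table. In edgeR, 6 splicing genes were called without iTBS 1 (Clk3, Luc7l2, Pnisr, Rbm25 and Srrm2 higher, Hnrnpc lower), 4 without sham 4 and 3 without cTBS 5, among 4474, 3637 and 3380 genes of the whole table. No splicing gene had iTBS and cTBS libraries that did not overlap, against 2.22% of all genes wholly higher and 1.7% wholly lower. With log2 Malat1 CPM as a covariate, the median of the 40 genes was −0.03, against 0.007 over all tested genes.

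In iTBS against sham no splicing gene was called by edgeR (0.0% of all genes), DESeq2 or limma, and none had an unadjusted p under 0.05, against 0.952% higher and 0.974% lower among all genes. The estimates were small, from −0.12 for Clk1 to 0.09 for Srsf9, with a median of −0.02, against −0.00 over all tested genes, and 15 of the 40 were positive, against 49.5% of all genes. Srsf9 averaged 25.5 ± 0.953 CPM in iTBS and 24.02 ± 1.54 CPM in sham (SD, n = 5 each), at 0.09 ± 0.07 (SE, unadjusted p = 0.233, adjusted p = 1.00, edgeR). It had the smallest p of the 40 genes, followed by Hnrnpf, U2af1, Hnrnpc, Srrm4 and Srsf10 at −0.08 ± 0.07, −0.08 ± 0.07, −0.07 ± 0.07, −0.09 ± 0.09 and −0.06 ± 0.07. The standard errors ran from 0.05 to 0.28 over the 40 genes, and none of the 40 had iTBS and sham libraries that did not overlap, against 0.243% of all genes wholly higher and 0.209% wholly lower. Both comparisons with sham share the sham libraries.

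Other genes of the splicing machinery were counted from lists of its complexes. Over all tested genes, 28.1% rose and 15.9% fell with Malat1, and of the 15245 tested protein-coding genes 2133 rose and 3378 fell. The lists here and in the next paragraph were not tested against these shares, and several lie near those of protein-coding genes. Of 20 Sm, U1 and U2 snRNP genes, 2 rose and 6 fell with Malat1, with a median slope of −0.08. Snrnp70, the U1 subunit that SR proteins contact, had a slope of 0.46 ± 0.04 (adjusted p = 7.34e-07, edgeR), and Sf3b5, a small U2 subunit, had a slope of −0.17 ± 0.04 (adjusted p = 0.00363, edgeR). Of 20 genes of the tri-snRNP and catalytic core, 3 rose and 2 fell, and the smallest p values were those of Prpf39 (0.41 ± 0.04) and Prpf38b (0.27 ± 0.03). Of 16 further hnRNP and related genes, 9 rose and 3 fell, with a median of 0.10, and Hnrnph3 had the smallest p value, with a slope of 0.26 ± 0.05. Of 19 genes of other SR kinases and SR-related proteins, 5 rose and 4 fell. Among them were Srpk3, a kinase of SR proteins known from muscle, at 0.56 ± 0.06 and Sfswap, the mammalian counterpart of a Drosophila splicing regulator, at 0.28 ± 0.04.

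Of 23 neuronal splicing regulators, 2 rose and 8 fell with Malat1, with a median slope of −0.05. Khdrbs2, which regulates splicing of neurexin transcripts, had a slope of 0.26 ± 0.05, and Celf3 of 0.12 ± 0.03. Of 15 genes of the exon junction complex and nonsense-mediated decay, 2 rose and 2 fell. Smg1, the kinase that phosphorylates Upf1, had a slope of 0.16 ± 0.04, and Smg8, a partner of Smg1, of −0.10 ± 0.04. In cTBS against sham none of these 113 genes was called. The estimates with the smallest p in their lists were negative for Smg1 (−0.39 ± 0.12), Acin1 (−0.33 ± 0.10), Sfswap (−0.50 ± 0.15), Khdrbs2 (−0.50 ± 0.16), Prpf38b (−0.44 ± 0.14), Prpf39 (−0.62 ± 0.21), Hnrnph3 (−0.48 ± 0.16), Hnrnpll (−0.16 ± 0.07) and Snrnp70 (−0.58 ± 0.24). They were positive for Eif4a3 (0.20 ± 0.07), Khdrbs1 (0.15 ± 0.06) and Snrpb (0.24 ± 0.09), with adjusted p from 0.144 to 0.172 over these 12 genes (edgeR).

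In the annotation, 17 of the 40 splicing genes share exon bases with another gene, 3 on the same strand and 14 on the opposite strand, among them Srrm4 with Srrm4os, Son with Donson, Srrm2 with Elob, Clk3 with Edc3 and Srsf2 with Mfsd11 and Mettl23. Levels of these genes are uncertain to the extent that the counting assigned shared reads to either gene.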

How the data were processed

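RNA came from an RNeasy Mini extraction, and an Illumina Stranded Total RNA kit with Ribo-Zero Plus removal of ribosomal RNA gave the libraries, per the labels' protocols, so unspliced and nuclear RNA can enter beside messenger RNA. The authors deposited raw counts per Ensembl gene, with no normalization, and variance-stabilized values (log2-like) of the 45315 genes with any count. Tools listed in the submitters' processing notes are fastp, STAR and DESeq2, and the build is GRCm39 (mm39). The roles and settings of these tools, the counter, the annotation and the strand setting were not given in the sources used here. Names, exon lengths and transcript classes came by identifier from an annotation of the earlier build GRCm38, and 52073 of 56748 identifiers, with 97.7% of the counts, had a name.

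Counts of all 15 libraries entered 1 edgeR model (4.0.16, R 4.3.3) with a term per group, tested by its quasi-likelihood F test, with TMM scaling and the default filter by group. The filter kept 22998 genes, which held 99.9% of the reads. Adjusted p is Benjamini-Hochberg over all tested genes, with a threshold of 0.05, and SE is the absolute estimate over the root of F. CPM of splicing genes was scaled by the tested genes' total times the TMM factor, and Malat1 CPM by the library total. The slope model adds centred log2 Malat1 CPM to the group terms, with Malat1 left out of the calls. Dispersion corresponded to a biological coefficient of variation of 20.1%. The procedure was tested on simulated counts with known changes. They were drawn independently for each gene, so calls under shifts that genes of a library share were not tested.

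The members, lists, tests and alternatives were chosen with earlier results of these data known. Values per library are given for the 6 genes with the smallest p in each of the comparisons and for the Malat1 slope, the genes with the highest and lowest slope, the 4 Clk genes and Srrm4; Luc7l2, Hnrnpl and the promoters were picked with their values seen. In each list of other splicing genes the 2 with the smallest p for the slope and for cTBS against sham are named, except 1 gene that is not reported here. Alternatives were other scalings, no filter, DESeq2 1.42.0, limma 3.58.1 on the deposited log2-like values, a replicate block, further covariates and leaving out libraries. Within each stimulation group, no 2 libraries agreed within sampling noise (lowest chi-square per degree of freedom 7.49). Pairs of libraries from different groups were not checked.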

Additional observations from a re-analysis of the deposited data

Results flagged for a closer look

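Within each group of 5 libraries, the gap of the highest or lowest CPM to its nearest neighbour was divided by the group's range and set against Dixon's 95% critical value of 0.71, for 40 genes in 3 groups. Of these 120 checks 4 passed, and chance alone flags about 1 in 20. Library cTBS 2 stood above the other cTBS libraries for 3 SR protein genes: Srsf1 was at 124 CPM (others 100.3 to 106 CPM), Srsf3 at 105.9 CPM (others 89.4 to 93.0 CPM) and Srsf7 at 60.2 CPM (others 47.5 to 49.8 CPM). Hnrnpf was at 63.2 CPM in sham 4, against 52.0 to 55.0 CPM in the other sham libraries. Malat1 in cTBS 2, at 3653 CPM, was the second highest of the cTBS group, and in sham 4, at 1565 CPM, the lowest of the sham group.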

How the results depend on the processing

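In the comparisons or the slope where its p was among the 6 smallest, no gene changed direction under any alternative run. The median of the 40 genes in iTBS against cTBS did change sign, from 0.14 to −0.030, with log2 Malat1 CPM as a covariate. Of 234 values for the list under alternatives, 227 counted as unchanged. For a count of called genes that meant a similar number, not the same genes. For a median it meant a shift smaller than the spread between libraries, 0.147 in log2. That limit exceeds the main medians of the slope (0.12), iTBS against cTBS (0.14) and iTBS against sham (−0.02). The loss of any of these 3 medians would therefore still count as unchanged. The slope was called for 27 splicing genes with all libraries and 19 without sham 4, which counted as unchanged. Of 630 values for single named genes, 610 kept their call and direction, while 20 came to pass the threshold. With log2 Malat1 CPM as a covariate the median was −0.0015 (cTBS against sham), −0.030 (iTBS against cTBS) and −0.03 (iTBS against sham), and −0.18, 0.14 and −0.02 without it. DESeq2 called 3 splicing genes in iTBS against cTBS, among 2618 genes of the whole table. Leaving out 1 library at a time gave 0 to 11 called genes for cTBS against sham (11 without sham 4), 0 to 6 for iTBS against cTBS (6 of 4474 genes called without iTBS 1, 4 of 3637 without sham 4 and 3 of 3380 without cTBS 5), none for iTBS against sham and 19 to 29 for the slope, with 18 that rose and 1 that fell without sham 4. Over all genes, DESeq2 called 132 in cTBS against sham, and edgeR called 5726 without sham 4 and 1 without iTBS 1; the slope was called for 6299 with log2 total count as a further covariate and 6478 without sham 4, against 10117; and the test of a difference in slope called 2 with no filter and 4 without sham 2, sham 5 and cTBS 4, against 0.

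The share of upward calls among all called slopes was 63.9%, and it was 91.0% with library totals alone, 75.7% with upper quartile scaling, 75.1% with log2 total count as a covariate and 52.6% with limma on the deposited values; for the splicing genes these fits gave 32 that rose and 0 that fell, 30 and 1, 22 and 0, and 22 and 5. In all 28 fits 16 genes rose: Clk1, Clk2, Clk3, Clk4, Hnrnph1, Luc7l2, Luc7l3, Pnisr, Rbm25, Rbm39, Sf3b1, Srrm1, Srsf5, Srsf6, Srsf11 and Tra2a. Hnrnpf fell in 25 and Hnrnpa0 in 19. Without the 2 libraries farthest in Malat1, cTBS 4 and sham 3, 21 genes rose and 2 fell.

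Same-numbered libraries deviated together in some pairs and not in others (correlations from −0.55 to 0.68, over 0.1 in 7 of 15 pairs, 6 of 15 libraries closest to their own number). The highest correlation was that of cTBS 4 with sham 4. The check cannot tell whether same-numbered libraries share a block, so fits with and without it are given. With the replicate block, 26 slopes were called (24 rose and 2 fell) and no splicing gene in the comparisons of groups (5 genes of the whole table in iTBS against cTBS), where the medians were −0.17 (cTBS against sham), 0.14 (iTBS against cTBS) and −0.02 (iTBS against sham).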
